A study of Mus musculus with 12 samples.

Results

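The non-additive part of the response to mutant CSF3R and mutant CEBPA was measured in mouse bone marrow cells. Its members were chosen by design: all 12 of the 12 RNA-seq libraries entered a 2 x 2 factorial, and for each gene the effect of adding CSF3R T618I to CEBPA V314VW was compared with the effect of CSF3R T618I on empty vector. The difference between these effects, on the log2 scale, is the interaction. It is 0 where the effects multiply on the scale of counts, positive where cells with both mutants exceeded that product (above additivity) and negative where they fell short of it (below additivity).

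The cells came from bone marrow of C57BL/6 mice, an inbred strain. All 4 groups were transduced with retroviral vectors in DMEM with 10% FBS, supplemented with SCF, IL-3, IL-6 and medium conditioned by WEHI cells. The empty vector group carried no insert, the CSF3R T618I group the receptor mutant, the CEBPA V314VW group the transcription factor mutant, and the combined group both at the same time. In each group, cells without mature lineage antigens that carried the GFP and red fluorescent vector markers were sorted and frozen. Each group had 3 biological replicates, A, B and C, and no source used here gives an animal, culture or sort day for a letter. The vectors placed the mutants over the cells' own Csf3r and Cebpa genes, and the marker gate selected transduced cells rather than a set level of either protein. These cells had been transduced in culture and had not passed through a host.

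CSF3R binds granulocyte colony-stimulating factor and drives neutrophil production through JAK kinases and STAT factors. The T618I change lies close to the membrane and makes the receptor signal without its ligand. CEBPA is a leucine zipper transcription factor that opens the granulocyte program in progenitors, and V314VW alters its DNA-binding end. Interferon-stimulated genes, which supplied the largest group of members below, are antiviral genes switched on by STAT factors and interferon regulatory factors, and most cell types can express them.

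Libraries held between 44210071 and 67431235 counts and between 21368 and 23262 detected genes. The share of counts on mitochondrial genes ran from 0.295% to 0.887%, and that on Lars2, a gene of a mitochondrial enzyme, from 0.305% to 1.64%. Replicates were closest among libraries with both mutants, with a biological coefficient of variation of 0.0462, and farthest apart in the CSF3R T618I group, at 0.267. Summed erythroid markers were 924 to 1084 CPM (counts scaled to the TMM library size) in empty vector, 3008 to 4315 in CSF3R T618I, 730.4 to 859 in CEBPA V314VW and 1895 to 1914 in both. Mast cell and basophil markers summed to 3474 to 4520, 1896 to 2308, 2255 to 2307 and 937 to 1068 CPM in the same order. Stem and progenitor genes summed to 1389 to 2324 CPM and B cell markers to 14.6 to 35.3 CPM over all libraries. The part of cell composition in the results below was not tested, and in bulk RNA fewer cells of a type cannot be told apart from less RNA per cell.

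Neither mouse Csf3r nor mouse Cebpa was called by edgeR, although DESeq2 called Csf3r above additivity. The counts are of the mouse genes, while the study measured its inserts, in related experiments, with assays for human CEBPA and CSF3R. Csf3r counts gave 126, 115 and 95.1 CPM in empty vector, 129.5, 150.4 and 268 in CSF3R T618I, 23.7, 28.6 and 29.5 in CEBPA V314VW and 97.1, 98.8 and 98.8 in both, with an interaction of 1.14 ± 0.31 (log2 ± SE, adjusted p = 0.108, edgeR). Cebpa gave 138, 137 and 147 CPM in empty vector, 138, 146 and 139 in CSF3R T618I, 177, 187 and 204 in CEBPA V314VW and 212, 216 and 219 in both, with an interaction of 0.18 ± 0.12 (adjusted p = 0.582). Reads of an insert that align to the mouse gene cannot be told apart from the cell's own reads here, so neither value measures the vector alone.

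To ask which genes departed from additivity, all libraries were fitted in a single model with a term for each mutant and an interaction term. Among 16360 genes tested, 60 were called above additivity (0.367% of the genes tested) and 169 below (1.03%), at an adjusted p under 0.05 and a log2 size over 1. With the adjusted p alone the numbers were 82 and 207. The median interaction over all genes tested was -0.04. By comparison, CSF3R T618I alone called 8.5% of genes against empty vector and 8.54% when added to CEBPA V314VW, while CEBPA V314VW called 9.15% against empty vector and 8.69% when added to CSF3R T618I. Leaving out single libraries moved the counts: without CSF3R T618I C they were 202 above and 363 below, and without any other library they fell, to as few as 33 and 104 without replicate B of both mutants.

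**Figure D1:**
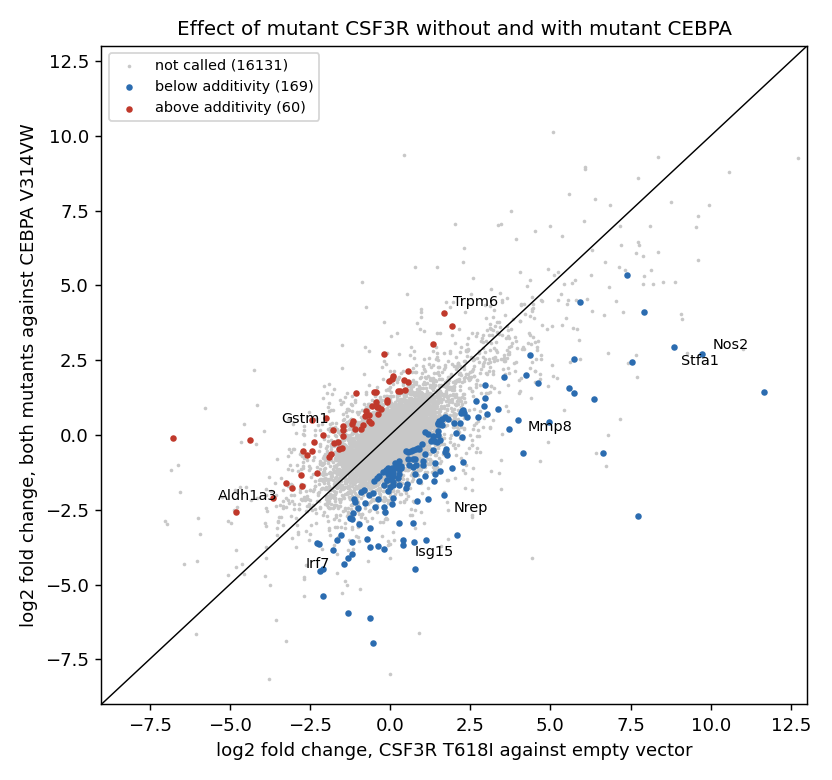
Each point is 1 of 16360 genes, with the log2 fold change of CSF3R T618I against empty vector on the x axis and of both mutants against CEBPA V314VW on the y axis. Points on the diagonal are log2-additive, the 60 genes above additivity lie above it in red and the 169 below lie under it in blue, and fitted values of genes near 0 counts in a group depend on the prior count of the model.

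The members took a few recurrent shapes. Of the 169 genes below additivity, 102 had their highest mean in CEBPA V314VW (60.4%, against 28.6% of all genes tested), 47 in CSF3R T618I, 16 in both and 4 in empty vector. Their lowest mean was in empty vector for 88 and in both mutants for 52. The most frequent pairing, with 44 genes, was highest in CEBPA V314VW and lowest in empty vector, followed by 38 that were highest in CEBPA V314VW and lowest in both. Of the 60 above, 24 were highest in empty vector and 23 in both, and 34 were lowest in CSF3R T618I and 22 in CEBPA V314VW. The median effect of CSF3R T618I among genes below additivity was 0.75 on empty vector and -1.11 on CEBPA V314VW, and among genes above it was -0.98 and 0.47. These medians are descriptions, since the interaction is their difference. The counts of highest and lowest groups are descriptions too. By the calling rule, genes below additivity tend to be highest in a single mutant and lowest in empty vector or both, and genes above the reverse. All genes tested met no such rule, so their percentages are not a like background. The size part of the rule does not choose between the single mutants, but the adjusted p depends on the spread between replicates. That spread was wider in CSF3R T618I (biological coefficient of variation 0.267) than in CEBPA V314VW (0.138). Its part in the 102 and 47 genes highest in CEBPA V314VW and CSF3R T618I was not tested.

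On a linear CPM scale, where effects add rather than multiply, the departure had the same sign for 162 of the 169 genes below and 53 of the 60 above. Mmp8, Ffar2, Sema4f, Esm1, Vcan, Abca4 and Lox were below the product but above the sum of the effects. Chdh, Bace1, Ifi209, Gpr34, Il31ra, Chst2 and Trgj1 were above the product but below the sum. For these genes the sign is a matter of the scale.

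Interferon-stimulated genes made up the largest listed group. Of 29 members tested, 25 were called below additivity and 0 above, with a median interaction of -2.19 against -0.04 over all genes. Every one of the 25 had its highest mean in CEBPA V314VW, and the lowest was in both mutants for 14, in CSF3R T618I for 9 and in empty vector for 2. The median log2 effect of CSF3R T618I on the 29 genes was -0.73 on empty vector and -3.50 on CEBPA V314VW, while that of CEBPA V314VW was 2.08 on empty vector and -0.03 on CSF3R T618I. Summed over the list, the level was 371.9 to 428 CPM in empty vector, 262 to 316 in CSF3R T618I, 1067 to 1295 in CEBPA V314VW and 284 to 309 in both. The 3 libraries of CEBPA V314VW thus lay above the other 9, and the 3 with both mutants lay below those of empty vector. At an unadjusted p under 0.05, 27 members were below 0 and 1, Ifit2, was above it, and DESeq2 called 24 below and 0 above.

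Irf7, a transcription factor that amplifies the interferon response (ENSMUSG00000025498, chromosome 7, 141262706 to 141266481, mm10), gave 12.3, 9.68 and 9.53 CPM in empty vector libraries A, B and C, 5.33, 3.48 and 5.2 in CSF3R T618I, 99.7, 68.5 and 80.2 in CEBPA V314VW and 4.95, 4.81 and 5.96 in both. The CEBPA V314VW libraries lay above all 9 others, and those with both mutants lay within the range of CSF3R T618I or just above it. The product of the separate effects would have given 36.8 CPM in cells with both mutants, and the interaction was -2.80 ± 0.27 (adjusted p = 2.99e-04, edgeR quasi-likelihood test). Irf7 overlaps Phrf1 on the other strand, and the strand setting of the counting is not given in the sources used here.

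Isg15, which encodes a ubiquitin-like protein attached to other proteins (ENSMUSG00000035692, chromosome 4, 156199424 to 156200818), gave 3.77, 4.07 and 3.77 CPM in empty vector, 7.89, 4.61 and 3.0 in CSF3R T618I, 31.2, 18.4 and 24.3 in CEBPA V314VW and 2.03, 1.75 and 2.74 in both. All libraries with both mutants were below all libraries of the other groups, although replicate C of CSF3R T618I came close. Its interaction of -3.91 ± 0.43 (adjusted p = 7.00e-04) was exceeded only by those of Stfa1 and Sema4f among called genes with at least 10 counts in every group and at least 10 CPM in the highest. Rsad2, the gene of the antiviral enzyme viperin (ENSMUSG00000020641, chromosome 12, 26442746 to 26456452), gave 4.04, 3.26 and 2.77 CPM in empty vector, 3.49, 2.57 and 2.74 in CSF3R T618I, 22.5, 22.6 and 24.8 in CEBPA V314VW and 1.46, 1.16 and 2.29 in both, with an interaction of -3.62 ± 0.31 (adjusted p = 1.76e-04).

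The promoters of these genes, from 250 bases before to 50 bases after the RefSeq start (GRCm38.p6), are shown because the interferon group is the clearest set of members. Capitals mark the letters TTCNNTTTC or their reverse complement GAAANNGAA, a short form of the interferon response element, and on either strand the letters TTCNNNGAA of STAT factors and TTGCNNAA of CEBP factors. The first of these motifs was added after the calls were known.
Isg15 (chr4:156200769-156201068, minus strand): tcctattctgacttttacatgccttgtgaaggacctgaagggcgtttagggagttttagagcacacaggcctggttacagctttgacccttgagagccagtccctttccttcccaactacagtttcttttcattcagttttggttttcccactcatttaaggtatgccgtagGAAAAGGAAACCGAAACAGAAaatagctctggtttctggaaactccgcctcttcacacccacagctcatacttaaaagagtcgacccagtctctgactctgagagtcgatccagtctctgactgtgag
Rsad2 (chr12:26456403-26456702, minus strand): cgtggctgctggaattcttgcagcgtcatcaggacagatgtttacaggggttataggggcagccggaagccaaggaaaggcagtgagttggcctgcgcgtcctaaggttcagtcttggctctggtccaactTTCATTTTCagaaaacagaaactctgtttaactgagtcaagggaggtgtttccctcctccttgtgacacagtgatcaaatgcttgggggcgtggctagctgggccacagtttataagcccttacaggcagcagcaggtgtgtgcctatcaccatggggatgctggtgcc
Isg15 held 3 overlapping matches to the interferon letters, starting 78, 72 and 66 bases before the start, and Rsad2 held 1, starting 119 bases before it. Neither window held the STAT or CEBP letters. Of the 25 listed genes called below, 16 had a promoter in the table and 10 of these held the interferon letters (62.5%), against 17 of 103 other genes below additivity (16.5%), 3 of 50 above (6%), 7.47% of tested genes and 8.57% of all 27025 promoters. The other genes below were those off the list, and some of them, such as Oas1b and Trim30d, belong to the families of listed genes. CEBP letters were found in 19 of 119 promoters of genes below (16%), in 9 of 50 above (18%) and in 8.45% of tested genes, and STAT letters in 7 (5.88%), in 3 (6%) and in 6.97%. A match is a description of the letters and not a bound site.

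Oasl2 and Oasl1, of the oligoadenylate synthetase family that senses viral RNA, had the same shape. Oasl2 gave 8.25, 6.03 and 5.69 CPM in empty vector, 2.97, 2.15 and 3.0 in CSF3R T618I, 72.5, 53.1 and 64.1 in CEBPA V314VW and 3.49, 3.78 and 3.74 in both, with an interaction of -2.80 ± 0.25 (adjusted p = 2.12e-04). For Oasl1 the means were 2.08 ± 0.294 CPM in empty vector, 1.26 ± 0.184 in CSF3R T618I, 20.3 ± 3.58 in CEBPA V314VW and 1.84 ± 0.141 in both (± SD, n = 3, as for all means below), and the interaction was -2.73 ± 0.25 (adjusted p = 2.14e-04). Usp18, whose protein removes ISG15 from its targets and restrains the type I interferon receptor, gave 10.4, 10.6 and 9.1 CPM in empty vector, 2.89, 1.83 and 1.86 in CSF3R T618I, 47.3, 35.5 and 44.1 in CEBPA V314VW and 1.44, 1.9 and 2.08 in both. It was lower with CSF3R T618I than with empty vector (log2 -2.20 ± 0.19, adjusted p = 5.03e-06) and fell further on CEBPA V314VW (-4.55 ± 0.21, adjusted p = 4.83e-08), which left an interaction of -2.35 ± 0.27 (adjusted p = 8.84e-04). Cmpk2, a nucleotide kinase gene next to Rsad2, had means of 40.5 ± 5.72 CPM in empty vector, 8.28 ± 1.28 in CSF3R T618I, 100.1 ± 4.37 in CEBPA V314VW and 8.11 ± 0.593 in both, with an interaction of -1.34 ± 0.18 (adjusted p = 0.00243).

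**Figure D2:**
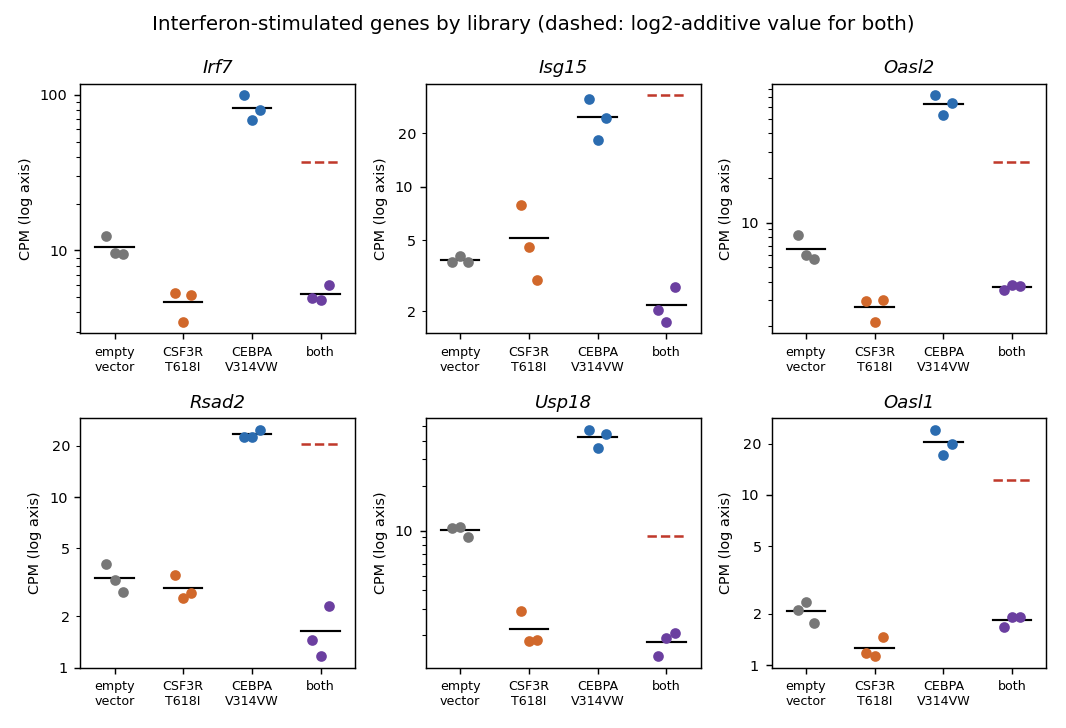
CPM on a log axis in each library (points, 3 per group) with the group mean (bar) for Irf7, Isg15, Oasl2, Rsad2, Usp18 and Oasl1, and the log2-additive value for both mutants (dashed). In all 6 genes the CEBPA V314VW libraries are the highest, and the libraries with both mutants lie under the dashed line.

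Other members of the antiviral group had smaller or less stable values. The tetherin gene Bst2 (-1.26 ± 0.25, adjusted p = 0.0236) and Ifit1 (-1.89 ± 0.41, adjusted p = 0.0382) each lost their call on leaving out any of 9 of the 12 libraries, by adjusted p or size, with adjusted p of up to 0.0827 and 0.116. Trim30a, a member of a restriction factor family, held its call at -1.39 ± 0.17 (adjusted p = 9.66e-04). Of the 4 members not called, Stat2 passed the adjusted p but not the size (-0.80 ± 0.13, adjusted p = 0.00678), Ifih1 had -1.01 ± 0.30 (adjusted p = 0.153), Ifit3b -0.31 ± 0.46 and Ifit2 0.68 ± 0.27. Across the 21 alternative analyses between 17 and 25 members were called below, and the median interaction ran from -2.32 to -1.67.

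Some members were neighbours in the genome. Runs of genes called below that lay within 50 kb of each other numbered 14 and held 32 of the 169 genes, and 0 such runs were found among the 60 above. The share of all genes tested that lie this close was not counted, so these numbers have no background beside them. The sets also differ in size, and a smaller set holds fewer possible neighbours. They included Oas2, Oas3 and Oas1b on chromosome 5 (120730333 to 120824163), Trim12c, Trim30b, Trim30a and Trim30d on chromosome 7 (104338754 to 104507849) and Rnf144a, Rsad2 and Cmpk2 on chromosome 12 (26300964 to 26479837). Members of the Oas and Trim30 families are similar in sequence and may share reads. Off the list, the helicase gene Ddx60 had means of 1.77 ± 0.657 CPM in empty vector, 1.18 ± 0.643 in CSF3R T618I, 25.5 ± 2.24 in CEBPA V314VW and 1.89 ± 0.165 in both, with an interaction of -3.13 ± 0.48 (adjusted p = 0.00463), and the interferon-induced gene Ifi27 had means of 69.3 ± 3.61 CPM in empty vector, 23.8 ± 4.74 in CSF3R T618I, 161 ± 17.2 in CEBPA V314VW and 15.7 ± 2.03 in both, with an interaction of -1.81 ± 0.20 (adjusted p = 7.50e-04).

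Some neutrophil genes below additivity, Stfa1 and Nos2 among them, had another shape: high in CSF3R T618I and low in the other groups. Stfa1, a stefin A gene that encodes an inhibitor of cysteine proteases in neutrophils (ENSMUSG00000071562, chromosome 16, 36276951 to 36285373), gave 0.463, 0.678 and 0.367 CPM in empty vector, 363, 171 and 161 in CSF3R T618I, 1.64, 0.141 and 0.0821 in CEBPA V314VW and 4.06, 5.35 and 5.08 in both. Mutant CSF3R raised it by 8.85 ± 0.73 on empty vector (adjusted p = 2.65e-06) and by 2.95 ± 0.65 on CEBPA V314VW (adjusted p = 0.00645), and all libraries with both mutants lay below all of CSF3R T618I. The interaction was -5.90 ± 0.99 (adjusted p = 0.00819), with the level in CEBPA V314VW set mainly by replicate A. Without that library it was -3.44 and no longer called (adjusted p = 0.275). The promoter of Stfa1 is printed because it had the largest interaction among called genes within the count and CPM limits given for Isg15. With capitals as above, it held 1 CEBP match, starting 109 bases before the start, and 0 STAT or interferon matches.
Stfa1 (chr16:36276898-36277197, plus strand): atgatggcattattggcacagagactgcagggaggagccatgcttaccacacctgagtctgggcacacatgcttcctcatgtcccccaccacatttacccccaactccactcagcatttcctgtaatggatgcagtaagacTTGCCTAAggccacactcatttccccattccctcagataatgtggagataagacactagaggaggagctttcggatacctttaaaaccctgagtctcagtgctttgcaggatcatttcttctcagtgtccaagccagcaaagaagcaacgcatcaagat
The other 6 stefin A genes tested had interactions from -8.14 to -4.08. None of the 6 was called, although 4 of the 7 stefin A genes, Stfa1 included, had an unadjusted p under 0.05 and DESeq2 called 4. BC100530 came closest (-6.51, adjusted p = 0.0502). The copies of this family are nearly alike and can share reads, so their separate values are uncertain.

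Nos2 (ENSMUSG00000020826, chromosome 11, 78920787 to 78960254), whose enzyme makes nitric oxide in activated myeloid cells, had too few counts in empty vector for a stable ratio and is given as counts. These were 0, 3 and 1 in empty vector, 1144, 939 and 1725 in CSF3R T618I, 13, 4 and 1 in CEBPA V314VW and 34, 28 and 52 in both. CSF3R T618I stood far above all other groups, and cells with both mutants were between. It was called below additivity (adjusted p = 0.0125) but not without replicate A of CEBPA V314VW (adjusted p = 0.239). Nos2 and Stfa1 had been singled out by the study and are not independent evidence of direction.

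Anxa1, the gene of an annexin that restrains neutrophil recruitment, was an abundant member. It gave 316, 313 and 335 CPM in empty vector, 894, 676 and 848 in CSF3R T618I, 472, 347 and 369.7 in CEBPA V314VW and 252, 284 and 299 in both, with an interaction of -1.84 ± 0.19 (adjusted p = 5.54e-04). Libraries with both mutants were the lowest of the 12. The receptor mutant's effect was 1.33 ± 0.13 on empty vector (adjusted p = 1.65e-05) and -0.51 ± 0.13 on CEBPA V314VW (adjusted p = 0.0174). Mmp8, the neutrophil collagenase of secondary and tertiary granules, took a different course, with 4.81, 7.54 and 3.83 CPM in empty vector, 99.9, 29.6 and 128 in CSF3R T618I, 688, 989 and 845 in CEBPA V314VW and 1084, 1277 and 1181 in both. Mutant CSF3R raised it by 3.99 ± 0.45 (adjusted p = 3.81e-05) and mutant CEBPA by 7.29 ± 0.52 (adjusted p = 8.18e-07) on empty vector. The libraries with both mutants were the highest, yet the product of the effects would be 13381 CPM, and the interaction was -3.50 ± 0.57 (adjusted p = 0.0072). The call of Mmp8 was lost with no filter on low counts (adjusted p = 0.0758).

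**Figure D3:**
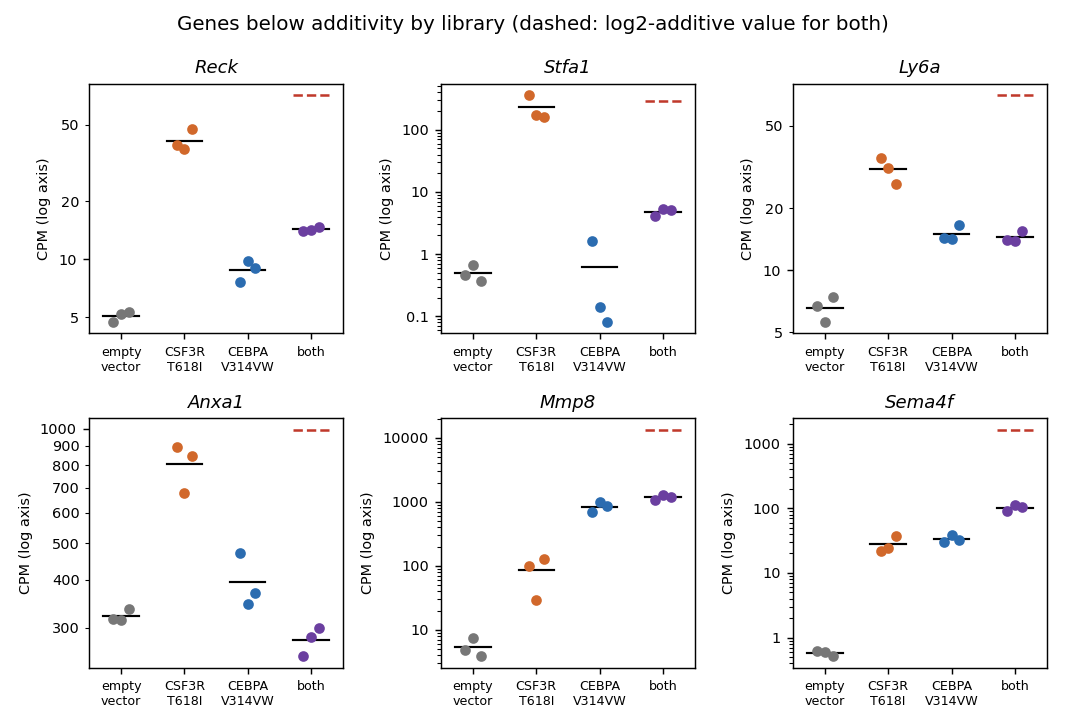
CPM on a log axis in each library (points, 3 per group) with the group mean (bar) and the log2-additive value for both mutants (dashed) for Reck, Stfa1, Ly6a, Anxa1, Mmp8 and Sema4f. In each gene the 3 libraries with both mutants lie under the dashed line, but in Mmp8 and Sema4f they are the highest of the 12.

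Most genes of the wider neutrophil lists were not called, where 1.03% of all genes tested were called below additivity and 0.367% above. At those shares 0 calls in a list of 10 says little about it, while 2 of 20 and 2 of 22 are larger shares. None of 10 primary granule genes was called by edgeR or DESeq2, with 2 at an unadjusted p under 0.05 and a median interaction of 0.19. Among 20 secondary and tertiary granule genes only Mmp8 and Anxa1 were called, both below, at a list median of -0.27, and among 22 late neutrophil receptor and effector genes 2 were called below, Nos2 among them, at a median of -0.49. S100a8, an abundant calcium-binding protein of neutrophils, gave 323 ± 113 CPM in empty vector, 2872 ± 1514 in CSF3R T618I, 57.3 ± 18.2 in CEBPA V314VW and 479 ± 27.9 in both, with an interaction of -0.09 ± 0.47 (adjusted p = 0.951). Lcn2, a granule siderophore binder, gave 20.6 ± 6.56 CPM in empty vector, 265 ± 90.6 in CSF3R T618I, 9.01 ± 0.716 in CEBPA V314VW and 89.6 ± 8.5 in both, with an interaction of -0.37 ± 0.35 (adjusted p = 0.677). These 2 genes, like others named outside the rule, were picked after their values were seen.

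The shape with the highest mean in CSF3R T618I and the lowest in empty vector held 28 genes below additivity, Nos2 among them. Reck, a membrane-bound inhibitor of matrix metalloproteinases (ENSMUSG00000028476, chromosome 4, 43875530 to 43944806), gave 4.75, 5.22 and 5.34 CPM in empty vector, 39.5, 37.3 and 47.3 in CSF3R T618I, 7.65, 9.79 and 9.01 in CEBPA V314VW and 14, 14.3 and 14.7 in both. The groups did not overlap. Its interaction was -2.32 ± 0.17 (adjusted p = 9.04e-05), as mutant CSF3R raised it by 3.02 ± 0.13 on empty vector (adjusted p = 2.31e-08) and by 0.70 ± 0.12 on CEBPA V314VW (adjusted p = 0.00124). Ly6a, which encodes the stem cell antigen Sca-1, gave 6.68, 5.64 and 7.4 CPM in empty vector, 35.1, 31.2 and 26.2 in CSF3R T618I, 14.4, 14.1 and 16.6 in CEBPA V314VW and 14, 13.8 and 15.6 in both, with an interaction of -2.29 ± 0.19 (adjusted p = 1.58e-04). On CEBPA V314VW the receptor mutant's effect on Ly6a was -0.06 ± 0.13 (adjusted p = 0.847). Paqr9, a membrane receptor gene, had means of 0.707 ± 0.193 CPM in empty vector, 17.3 ± 7.28 in CSF3R T618I, 3.03 ± 0.855 in CEBPA V314VW and 10.1 ± 1.26 in both (-2.88 ± 0.43, adjusted p = 0.0037). Mgst1, a microsomal glutathione transferase, had means of 41.2 ± 5.53 CPM in empty vector, 171 ± 48.1 in CSF3R T618I, 94.7 ± 4.14 in CEBPA V314VW and 99.8 ± 3.07 in both, with an interaction of -1.98 ± 0.23 (adjusted p = 9.15e-04). Saa3, an acute-phase serum amyloid, gave 2.51 ± 0.613 CPM in empty vector, 416 ± 172 in CSF3R T618I, 6.21 ± 1.36 in CEBPA V314VW and 251 ± 14.5 in both, with an interaction of -2.04 ± 0.37 (adjusted p = 0.0139), and missed the threshold without replicate A of CEBPA V314VW (adjusted p = 0.0563).

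Outside the antiviral list, 77 of the 144 genes below additivity were also highest in CEBPA V314VW. The 144 still include interferon-related genes that were not listed, such as Ddx60, Ifi27, Oas1b and Trim30d. Hlf, a transcription factor of stem cells (ENSMUSG00000003949, chromosome 11, 90336536 to 90390895), gave 17, 16.1 and 16.6 CPM in empty vector, 11.2, 14.1 and 18 in CSF3R T618I, 96.5, 86.7 and 92.3 in CEBPA V314VW and 27.7, 27.7 and 30.1 in both. The interaction was -1.49 ± 0.20 (adjusted p = 0.00188). Mutant CSF3R alone had an effect of -0.20 ± 0.14 on Hlf (adjusted p = 0.345) and of -1.69 ± 0.14 when added to CEBPA V314VW (adjusted p = 3.62e-06). Procr, the protein C receptor that marks stem cells, had means of 0.621 ± 0.0811 CPM in empty vector, 0.91 ± 0.293 in CSF3R T618I, 2.97 ± 0.436 in CEBPA V314VW and 0.94 ± 0.166 in both, with an interaction of -2.19 ± 0.39 (adjusted p = 0.0114). Hlf, Ly6a and Procr were the only stem and progenitor genes called, of 30 tested, at a list median of -0.11. Over all genes tested 1.03% were called below. Dhrs3, a retinal reductase, gave 10.4 ± 1.14 CPM in empty vector, 21.2 ± 3.77 in CSF3R T618I, 59.6 ± 3.03 in CEBPA V314VW and 32.3 ± 2.3 in both (-1.91 ± 0.18, adjusted p = 3.10e-04), and Itm2a, a membrane protein gene, 9.74 ± 0.588 CPM in empty vector, 15.9 ± 2.13 in CSF3R T618I, 66 ± 11.4 in CEBPA V314VW and 31.5 ± 1.6 in both (-1.77 ± 0.19, adjusted p = 6.40e-04).

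In 9 genes the receptor mutant was called in opposite directions on the separate backgrounds, and 8 of these were below additivity. Nrep, a neuronal regeneration-related gene, gave 0.676, 0.568 and 0.245 CPM in empty vector, 1.57, 1.2 and 2.12 in CSF3R T618I, 12.2, 10.4 and 10 in CEBPA V314VW and 2.92, 2.75 and 2.35 in both. Mutant CSF3R raised it by 1.70 ± 0.31 on empty vector (adjusted p = 0.0016), and on CEBPA V314VW its effect was -2.02 ± 0.26 (adjusted p = 1.18e-04). Ntn4, which encodes a secreted netrin, gave 0.599, 0.984 and 0.857 CPM in empty vector, 2.69, 1.4 and 1.51 in CSF3R T618I, 10.7, 11.8 and 10 in CEBPA V314VW and 3.05, 2.01 and 2.27 in both, with effects of 1.19 ± 0.28 and -2.15 ± 0.25 and an interaction of -3.34 ± 0.38 (adjusted p = 7.50e-04). Lypd6b, Rnf150, Ms4a4b, the ETS factor gene Etv1, the uridine phosphorylase gene Upp1 and Mpp2 had effects of the same signs, with interactions from -3.03 to -2.03. Of these, Mpp2 lost its call on leaving out any of 10 of the 12 libraries (adjusted p of up to 0.0992) and Upp1 without replicate A of both mutants (adjusted p = 0.0507). The gene 4921529L05Rik went the other way, with 2.45, 2.47 and 2.43 CPM in empty vector, 1.07, 1.08 and 1.4 in CSF3R T618I, 0.14, 0.222 and 0.226 in CEBPA V314VW and 0.618, 0.448 and 0.504 in both, effects of -1.05 ± 0.22 and 1.41 ± 0.28 and an interaction of 2.46 ± 0.36 (adjusted p = 0.00319).

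Platelet and red cell markers entered singly. Pf4, platelet factor 4, gave 9.37, 13.8 and 14.7 CPM in empty vector, 8.57, 6.65 and 4.21 in CSF3R T618I, 31, 25 and 23.5 in CEBPA V314VW and 3.0, 3.83 and 3.18 in both (-2.03 ± 0.34, adjusted p = 0.00819). Of 17 megakaryocyte and platelet genes only Pf4 and Gp1bb were called, both below, where 1.03% of all genes tested were called below. Of 27 erythroid genes 1 was called, below additivity. In that list 25 of 27 values were negative, at a median of -0.39, and DESeq2 called 5 below; the erythroid sums are given above. The call of Gp1bb was lost without any of 10 of the 12 libraries, at adjusted p of up to 0.117. Also called below were Cma1, a mast cell chymase gene (-1.15 ± 0.20, adjusted p = 0.0118), and Alox15, an eosinophil lipoxygenase gene (-1.17 ± 0.21, adjusted p = 0.0119), the first of which lost its call without CEBPA V314VW B or Empty C, by size (-0.95) or by adjusted p (0.0536).

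In 16 genes the combined cells were the highest and yet below the product. Sema4f, a semaphorin gene (ENSMUSG00000000627, chromosome 6, 82911885 to 82939769), gave 0.618, 0.59 and 0.51 CPM in empty vector, 21.5, 24.1 and 37.6 in CSF3R T618I, 30.5, 39.1 and 32.2 in CEBPA V314VW and 89.2, 112 and 104 in both. Adding mutant CSF3R to CEBPA V314VW raised it by 1.58 ± 0.18 (adjusted p = 5.79e-05), where the product of the effects would have given 1644 CPM (-4.01 ± 0.30, adjusted p = 9.04e-05). Esm1, a secreted proteoglycan gene, had means of 0.777 ± 0.191 CPM in empty vector, 14.7 ± 3.2 in CSF3R T618I, 22.2 ± 1.06 in CEBPA V314VW and 88.9 ± 4.82 in both (-2.24 ± 0.24, adjusted p = 6.47e-04) and Ffar2, a fatty acid receptor of neutrophils, 14.4 ± 1.24 CPM in empty vector, 92.7 ± 23.4 in CSF3R T618I, 74.5 ± 6.43 in CEBPA V314VW and 164 ± 9.01 in both (-1.55 ± 0.21, adjusted p = 0.00255). The promoter of Sema4f, printed as a contrast to those above, held 0 matches to the 3 motifs.
Sema4f (chr6:82939720-82940019, minus strand): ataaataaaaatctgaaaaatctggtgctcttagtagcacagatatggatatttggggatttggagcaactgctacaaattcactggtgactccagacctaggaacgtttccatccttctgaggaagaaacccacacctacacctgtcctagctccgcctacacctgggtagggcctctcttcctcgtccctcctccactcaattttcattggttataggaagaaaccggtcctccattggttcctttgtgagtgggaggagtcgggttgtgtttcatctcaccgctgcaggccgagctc

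Several genes above additivity were lowest in CSF3R T618I, with a smaller or positive effect of the receptor mutant on CEBPA V314VW. Gstm1, a cytosolic glutathione transferase (ENSMUSG00000058135, chromosome 3, 108012255 to 108017973), gave 321, 354 and 336 CPM in empty vector, 128, 115 and 119.7 in CSF3R T618I, 751, 629.6 and 691 in CEBPA V314VW and 729, 796 and 801 in both. The CSF3R T618I libraries were the lowest of the 12, while CEBPA V314VW and both overlapped. Mutant CSF3R had an effect of -1.48 ± 0.09 on empty vector (adjusted p = 3.17e-07) and of 0.17 ± 0.09 on CEBPA V314VW (adjusted p = 0.263), and the interaction was 1.65 ± 0.13 (adjusted p = 9.48e-05). Hspa2, a heat shock protein 70 gene, followed the same course with 44.4, 44.9 and 42.8 CPM in empty vector, 23.4, 23.5 and 26.5 in CSF3R T618I, 261, 238 and 277 in CEBPA V314VW and 311, 326 and 333 in both (1.17 ± 0.13, adjusted p = 6.40e-04). For Far2, a fatty acyl-CoA reductase gene, the means were 19.2 ± 3.38 CPM in empty vector, 6.94 ± 1.16 in CSF3R T618I, 19.5 ± 1.77 in CEBPA V314VW and 24 ± 0.964 in both (1.78 ± 0.21, adjusted p = 9.09e-04), and for the actin-binding gene Afap1 29.6 ± 6.17 CPM in empty vector, 7.05 ± 3.09 in CSF3R T618I, 42.5 ± 8.86 in CEBPA V314VW and 42.9 ± 2.96 in both (2.09 ± 0.36, adjusted p = 0.0111). Gramd3 had means of 11.9 ± 0.864 CPM in empty vector, 5.55 ± 0.778 in CSF3R T618I, 35.7 ± 1.94 in CEBPA V314VW and 41.3 ± 0.409 in both (1.31 ± 0.16, adjusted p = 8.84e-04). Gstm1 belongs to a family of similar genes that may share reads.

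In a further shape, a rise with CSF3R T618I was larger when CEBPA was mutant. B4galnt4, a glycosyltransferase gene (ENSMUSG00000055629, chromosome 7, 141061104 to 141072400), gave 11.8, 10.9 and 8.47 CPM in empty vector, 31.6, 36.9 and 49.3 in CSF3R T618I, 6.51, 4.92 and 5.56 in CEBPA V314VW and 67.1, 69.2 and 76.5 in both. CEBPA V314VW alone lay under empty vector, while the cells with both mutants lay above all other libraries. The receptor mutant's effect was 1.92 ± 0.18 without (adjusted p = 6.89e-06) and 3.65 ± 0.19 with mutant CEBPA (adjusted p = 9.15e-08), an interaction of 1.73 ± 0.24 (adjusted p = 0.00286). Tarm1, an activating receptor of myeloid cells, gave 13.2, 11.9 and 10.1 CPM in empty vector, 31.9, 24.5 and 33.6 in CSF3R T618I, 4.75, 4.94 and 4.8 in CEBPA V314VW and 35.6, 43.1 and 39.7 in both (1.68 ± 0.20, adjusted p = 8.84e-04).

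Trpm6, a magnesium channel gene (ENSMUSG00000024727, chromosome 19, 18749983 to 18892511), had the largest value among genes called above additivity within the same limits. It gave 1.27, 0.721 and 0.877 CPM in empty vector, 1.84, 2.51 and 4.88 in CSF3R T618I, 1.88, 0.987 and 0.965 in CEBPA V314VW and 21, 21.9 and 21.6 in both, with an interaction of 2.40 ± 0.50 (adjusted p = 0.0306). The libraries with both mutants lay above all 9 others. The call was nevertheless lost on leaving out any of 8 of the 12 libraries, at adjusted p from 0.0544 to 0.0904. Its promoter and that of Ifi209, the first 2 of these genes in size with an entry in the promoter table, each held 1 match to the CEBP letters, starting 5 and 6 bases after the start, and 0 to the others. The RefSeq start of Trpm6 used here lies upstream of its GENCODE start.
Trpm6 (chr19:18749480-18749779, plus strand): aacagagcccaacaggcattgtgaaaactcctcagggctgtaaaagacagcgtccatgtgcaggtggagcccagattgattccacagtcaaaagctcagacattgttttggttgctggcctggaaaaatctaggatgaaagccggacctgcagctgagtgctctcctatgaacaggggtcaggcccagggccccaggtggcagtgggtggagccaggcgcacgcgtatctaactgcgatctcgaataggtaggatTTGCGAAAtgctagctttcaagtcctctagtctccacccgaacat
Ifi209 (chr1:173630609-173630908, plus strand): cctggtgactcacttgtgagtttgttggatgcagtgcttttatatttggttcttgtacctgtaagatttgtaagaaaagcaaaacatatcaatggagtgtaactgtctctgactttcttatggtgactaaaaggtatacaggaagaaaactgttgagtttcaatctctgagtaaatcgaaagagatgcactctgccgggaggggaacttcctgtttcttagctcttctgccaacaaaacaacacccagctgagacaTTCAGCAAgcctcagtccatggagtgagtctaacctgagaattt
Ifi209 (ENSMUSG00000043263, chromosome 1, 173630917 to 173647928), of the Ifi200 family of interferon-inducible DNA sensors, ran against the antiviral list, with 4.15, 2.21 and 2.94 CPM in empty vector, 0.351, 0.548 and 0.907 in CSF3R T618I, 114, 136 and 151 in CEBPA V314VW and 110.4, 112 and 114 in both (2.13 ± 0.36, adjusted p = 0.00824). Adding mutant CSF3R to CEBPA V314VW had an effect of -0.25 ± 0.21 (adjusted p = 0.499), against -2.38 ± 0.29 on empty vector (adjusted p = 6.95e-05). Its family has similar copies, so that reads may be shared, and the sign was reversed on the linear scale.

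**Figure D4:**
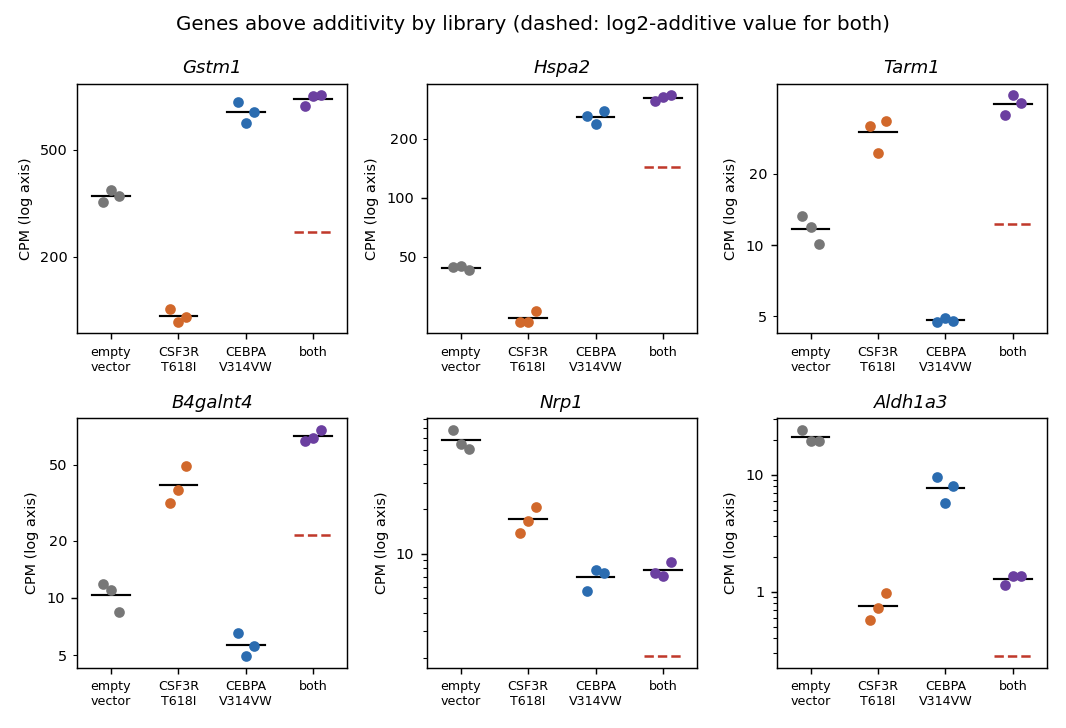
CPM on a log axis in each library (points, 3 per group) with the group mean (bar) and the log2-additive value for both mutants (dashed) for Gstm1, Hspa2, Tarm1, B4galnt4, Nrp1 and Aldh1a3. In each gene the 3 libraries with both mutants lie above the dashed line, and in Nrp1 and Aldh1a3 they remain under empty vector.

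Another shape was that of a gene which either mutant lowered and which stayed far above the product of the effects in cells with both. Nrp1, a coreceptor for semaphorins and vascular growth factors (ENSMUSG00000025810, chromosome 8, 128358604 to 128503363), gave 68.2, 54.6 and 50.5 CPM in empty vector, 13.7, 16.7 and 20.6 in CSF3R T618I, 5.63, 7.76 and 7.37 in CEBPA V314VW and 7.46, 7.1 and 8.83 in both. All 9 libraries with a mutant lay under those with empty vector, and CEBPA V314VW and both overlapped. The product of the effects would have been 2.03 CPM, and the interaction was 1.94 ± 0.25 (adjusted p = 0.00149). Aldh1a3, an enzyme that makes retinoic acid, gave 24.4, 19.6 and 19.5 CPM in empty vector, 0.578, 0.73 and 0.971 in CSF3R T618I, 9.64, 5.78 and 7.96 in CEBPA V314VW and 1.15, 1.37 and 1.38 in both (2.22 ± 0.31, adjusted p = 0.00282). On empty vector Nrp1 had effects of -1.77 ± 0.18 from mutant CSF3R (adjusted p = 1.35e-05) and -3.06 ± 0.19 from mutant CEBPA (adjusted p = 2.79e-07), and Aldh1a3 of -4.80 ± 0.24 (adjusted p = 4.70e-08) and -1.44 ± 0.19 (adjusted p = 1.58e-04).

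In other genes above additivity CEBPA V314VW stood low on its own. The ADP receptor gene P2ry1 had means of 54.7 ± 5.91 CPM in empty vector, 42.4 ± 3.71 in CSF3R T618I, 23.9 ± 2.36 in CEBPA V314VW and 45.8 ± 2.99 in both, with an interaction of 1.31 ± 0.16 (adjusted p = 0.00111), and the tight junction gene Cldn15 54.1 ± 5.23 CPM in empty vector, 51 ± 8.37 in CSF3R T618I, 18.4 ± 2.17 in CEBPA V314VW and 41.6 ± 1.91 in both, with an interaction of 1.26 ± 0.18 (adjusted p = 0.00322). On empty vector the effect of CEBPA V314VW was -1.20 ± 0.11 on P2ry1 (adjusted p = 1.03e-05) and -1.56 ± 0.13 on Cldn15 (adjusted p = 3.74e-06), and on CSF3R T618I its effects were 0.11 ± 0.11 and -0.29 ± 0.13 (adjusted p = 0.519 and 0.137). Cables1, a cyclin-dependent kinase partner that was lowest in CSF3R T618I, had means of 37.5 ± 2.57 CPM in empty vector, 16.5 ± 3.87 in CSF3R T618I, 20 ± 1.72 in CEBPA V314VW and 25.5 ± 1.74 in both (1.53 ± 0.22, adjusted p = 0.00282).

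Il31ra, a cytokine receptor subunit, and Gpr34, a lysophospholipid receptor, were highest in CEBPA V314VW and lowest in CSF3R T618I. Il31ra gave 1.45, 2.05 and 1.29 CPM in empty vector, 0.227, 0.396 and 0.237 in CSF3R T618I, 9.88, 10.6 and 10.2 in CEBPA V314VW and 7.49, 7.41 and 6.5 in both (1.90 ± 0.31, adjusted p = 0.00641). Gpr34 had means of 22.1 ± 2.43 CPM in empty vector, 2.62 ± 0.536 in CSF3R T618I, 35.2 ± 2.12 in CEBPA V314VW and 10.3 ± 0.607 in both (1.30 ± 0.20, adjusted p = 0.00453). Among the marker lists only 2 members were above additivity, the monocyte antigen gene Ly6c2 (1.44 ± 0.28, adjusted p = 0.0221) and the T cell factor gene Tcf7 (1.56 ± 0.33, adjusted p = 0.0353). They lost their calls without any of 6 and 9 of the 12 libraries, at adjusted p of up to 0.0749 and 0.113. Over all genes tested 0.367% were called above.

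A few members were near 0 in a group and are given as counts. Shroom3, a cytoskeletal regulator, had 18, 14 and 8 counts in empty vector, 0, 0 and 0 in CSF3R T618I, 194, 234 and 207 in CEBPA V314VW and 191, 201 and 173 in both, and was called above additivity (adjusted p = 0.00282). Rbp4, the plasma retinol carrier, had 0, 0 and 2 counts in empty vector, 1, 1 and 2 in CSF3R T618I, 975, 939 and 883 in CEBPA V314VW and 35, 45 and 40 in both and was called below (adjusted p = 0.0317). It lost the call without any of 10 of the 12 libraries, at adjusted p of up to 0.0717. In all, 16 genes below and 2 above had fewer than 10 counts in a group, for which the fitted size depends on the prior count. The highest group mean was under 10 CPM for 64 genes below and 21 above.

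Outside the interferon list, most programs held few or 0 calls, where 1.03% of all genes tested were called below and 0.367% above. At those shares 0 calls in lists of this length is close to the background and says little about a program. Of 24 JAK/STAT feedback and target genes 1 was called, below additivity. Socs3, a feedback inhibitor of cytokine receptors, gave 29.6, 27.3 and 28.6 CPM in empty vector, 136, 129.8 and 156 in CSF3R T618I, 17.5, 12.6 and 14.6 in CEBPA V314VW and 77.1, 82.6 and 87.2 in both, with an interaction of 0.16 ± 0.17 (adjusted p = 0.709), from effects of 2.31 ± 0.13 on empty vector and 2.47 ± 0.13 on CEBPA V314VW. Bcl3, a nuclear IκB protein gene, passed the adjusted p but not the size (-0.68 ± 0.14, adjusted p = 0.0324). Bcl6, Pla2g7 and Myb, which the study also names, had -1.08 ± 0.27, -2.40 ± 0.75 and 0.46 ± 0.12 and were not called (adjusted p = 0.0728, 0.179 and 0.0759). None of 16 CEBP and granulocyte-monocyte factors, 19 cytokine receptors, 23 inflammatory cytokines and chemokines, 14 dendritic cell and MHC class II genes, 8 B cell genes, 22 replication genes, 20 mitosis genes, 18 MYC and ribosome biogenesis genes, 19 cholesterol synthesis genes, 18 glycolysis and hypoxia genes or 18 immediate early genes was called. The medians of these 11 lists ran from -0.23 to 0.26. Of their 195 members, 31 had an unadjusted p under 0.05, and DESeq2 called 4 above and 1 below. The share of all genes tested under that unadjusted p was not counted, so the 31 has no background beside it.

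**Figure D5:**
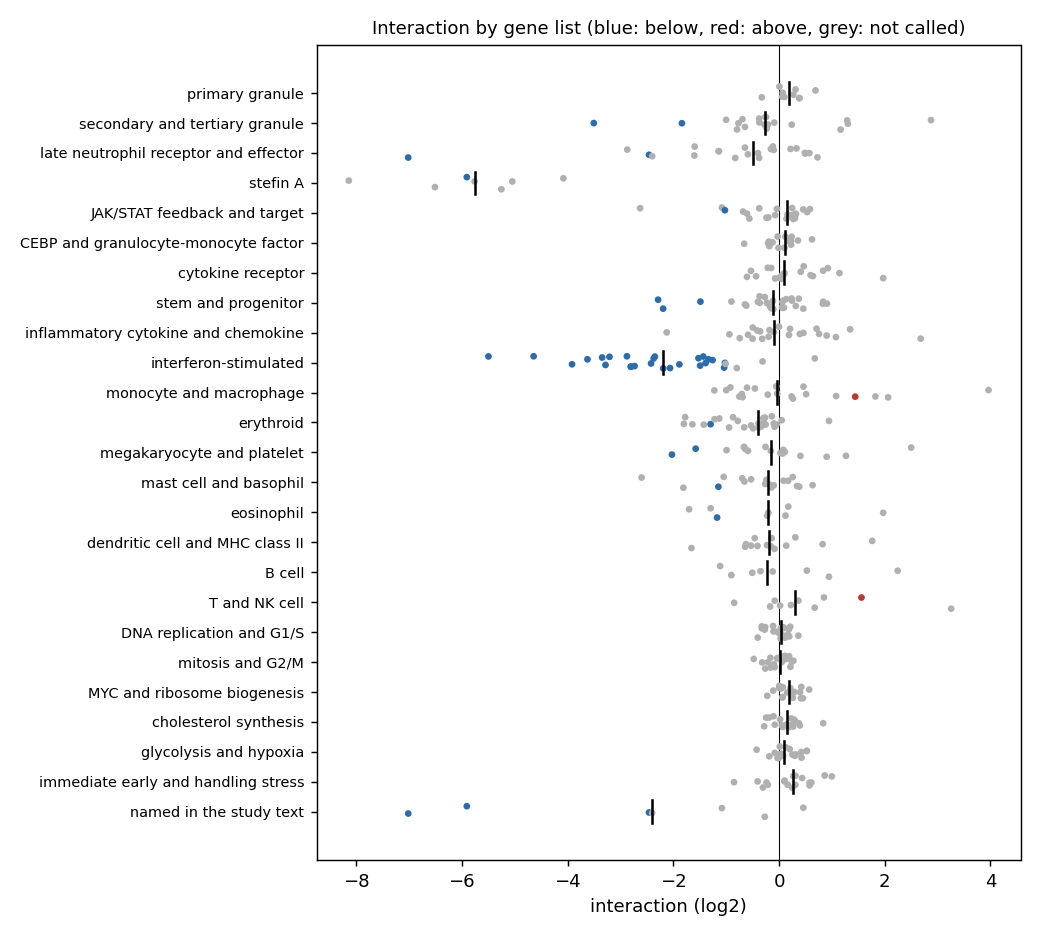
Interaction (log2, x axis) of each tested member of the 25 gene lists (rows), with the list median (bar) and members called below in blue, above in red and not called in grey. Of the interferon-stimulated members 25 of 29 were called below, at a list median of -2.19. The stefin A list has a lower median, -5.76, with 1 of 7 called. The proliferation and metabolism lists sit within 1 log2 unit of 0.

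At the edge of the size threshold, Cdk20 (-1.006) and Tgtp2 (-1.006) were the last genes inside below additivity and Ms4a6c (-0.998) and Xrcc5 (-0.977) the first outside. Above additivity Rapgef3 (1.004) and Idh1 (1.013) were just inside and Dusp1 (0.998) and Slc7a11 (0.930) just outside. Among the 229 genes called, 93.9% were protein coding, against 80.1% of those tested, and 58 of the 60 above and 131 of the 169 below were on none of the lists.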

How the data were processed

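Per the labels, the RNeasy micro kit was used for RNA, and cDNA was amplified with the SMARTer low input kit. The deposited table gives, for each gene and library, the whole-number count of reads, not normalized. Before that, the authors trimmed reads with Trimmomatic and aligned them with STAR to mm10. Their own tests used DESeq2. How reads were assigned to genes (program, annotation release, use of strand) is not given in the sources used here. Columns without a matching sample numbered 0. The table held 51912 genes after 6 repeated lines were dropped.

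Counts were tested with the edgeR 4.0.16 quasi-likelihood F test (R 4.3.3, robust, TMM, default expression filter by group) under a factorial model of both mutants, with Benjamini-Hochberg adjustment. Calls needed an adjusted p under 0.05 together with an absolute log2 size over 1, as in the study. The SE is the absolute log2 value over the square root of F. CPM used TMM library sizes. The log2-additive value for both mutants is the product of the mean CPM of the single mutants over that of empty vector. Intervals cover the spread between these samples, which nothing ties to separate animals. DESeq2 1.42.0, limma 3.58.1 voom, other scalings and filters, a length correction, left-out libraries and a replicate block were alternatives.

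Genes were named by fixed rules: the 12 largest calls per direction whose highest group reached 10 CPM and every group 10 counts, up to 3 called members per list and direction, up to 3 genes of the smallest adjusted p per frequent shape, and genes the study names. Members, lists (25, with 457 genes) and rules were chosen with earlier results of these data known, and the list of genes the study names is not independent evidence. Other genes were named after their values were seen. Gene coordinates were read from GENCODE M21 (mm10) and promoters from RefSeq (GRCm38.p6). Where a listed gene was not in the promoter table only its name is given. Some genes that met the naming rules are not reported here.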

Additional observations from a re-analysis of the deposited data

Results flagged for a closer look

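The receptor mutant's effect differed between cells without and with mutant CEBPA in 60 genes above additivity and 169 below, by the interaction test itself (edgeR quasi-likelihood, adjusted p under 0.05 and log2 size over 1). In 9 of these the effect was called in opposite directions on the separate backgrounds. The interactions of the 8 genes that mutant CSF3R raised on empty vector and lowered on CEBPA V314VW were -3.72 for Nrep, -3.34 for Ntn4, -3.03 for Lypd6b, -2.93 for Rnf150, -2.77 for Ms4a4b, -2.71 for Etv1, -2.44 for Upp1 and -2.03 for Mpp2. That of 4921529L05Rik, which it lowered on empty vector and raised on CEBPA V314VW, was 2.46. Of these 9 genes, all but Nrep and Ntn4 had a highest group mean under 10 CPM.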

How the results depend on the processing

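The 60 calls above additivity numbered 113 with DESeq2, 520 with limma voom and sample weights and 35 with a replicate block, and the 169 below 242, 671 and 119. With a weight per group, added after seeing that the CSF3R T618I libraries vary more, limma voom called 45 and 132. Without each library in turn the counts ran from 33 to 202 above and from 104 to 363 below. Both maxima came without CSF3R T618I C, and leaving out CEBPA V314VW A or C, Empty B or any library with both mutants took the calls below to 110 or fewer, and leaving out Empty B or any library with both mutants took those above to 39 or fewer. Other scalings, filters and the length correction gave 58 to 75 above and 159 to 191 below. None of the 229 genes changed sign in any of the 21 alternatives. Of 90 called genes named in the text or by its rules, 50 kept their call in all of them. The cause of these differences was not tested. No pairing by letter was seen: deviations of same-letter libraries from their group means correlated at -0.76 to 0.66, above 0.1 in 5 of 18 pairs. Of 12 libraries, 0 correlated best with their own letter. This cannot exclude a shared animal or day, because the deviations also correlated with log2 gene length, at 0.57 in Empty A and -0.53 in Empty C. Of the calls, 35 of 60 and 117 of 169 were also made with the block. Low counts limit 64 genes below and 21 above, whose highest group mean was under 10 CPM.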
